A study of Homo sapiens with 45 samples.

Results

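This account covers AANAT and 5 amine oxidase genes, AOC1, AOC2, AOC3, MAOA and MAOB, in HCT116 cells, a line long established from a human colon cancer, after depletion of the nucleic acid binding protein HNRNPK. The 6 genes were taken by symbol from a table of 28278 gene names. AANAT and AOC3 were chosen from the knockdown comparison itself, for their rise from low counts, so their change is described without a test, and the other 4 were taken as members of the amine oxidase family. Of the 6 genes, 5 passed the filter on low counts; AOC1 did not. All cells received siRNA at 25 nM for 72 hours. The knockdown group carried HNRNPK siRNA (siHNRNPK, 4 RNA libraries), and the controls carried a nontargeting siRNA (siNTC5, 4 RNA libraries). TruSeq kits were used for replicates 1 and 2 of both groups, and Ligation kits for replicates 3 and 4. Another 2 controls with nontargeting siRNA, labelled Scramble, were TruSeq libraries whose RNA was purified with another kit and whose counts came in separate tables. Chromatin was described by 7 lists of called domains for lamin B1, which lines the inner nuclear membrane, and for the histone marks H3K9me2, H3K9me3 and H3K27me3.

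AANAT encodes the enzyme that acetylates serotonin, the step before the final methylation that yields melatonin, and is best known from the pineal gland and retina. The copper amine oxidases remove amino groups from amines and release an aldehyde, ammonia and hydrogen peroxide. AOC1 is the diamine oxidase that degrades histamine and putrescine and is known from intestinal epithelium, AOC2 is known from the retina, and AOC3 is vascular adhesion protein, known from fat and endothelium. MAOA and MAOB are flavin enzymes of the mitochondrial outer membrane that oxidise monoamines such as serotonin and dopamine.

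The sequences before the gene starts show how differently these genes begin. They are RefSeq promoter windows of GRCh38.p14, printed for 3 genes, AANAT, AOC2 and MAOB, as stretches outside the gene itself and a neighbour's first exon. The AANAT stretch is the whole interval of 198 bases between the start of AANAT and that of UBE2O, which is transcribed the other way, at chr17:76453153-76453350, plus strand. The AOC2 stretch is chr17:42844330-42844579, plus strand, and the MAOB stretch is chrX:43882451-43882700, minus strand. Capitals mark matches on either strand to a cyclic AMP response half-site (TGACG), a GC box (GGGCGG) and a TATA box (TATAAA). Overlapping matches were each counted.
AANAT: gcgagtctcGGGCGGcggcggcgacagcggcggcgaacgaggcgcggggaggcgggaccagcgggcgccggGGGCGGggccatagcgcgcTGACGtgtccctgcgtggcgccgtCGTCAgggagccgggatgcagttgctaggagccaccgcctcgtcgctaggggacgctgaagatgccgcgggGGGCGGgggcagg
AOC2: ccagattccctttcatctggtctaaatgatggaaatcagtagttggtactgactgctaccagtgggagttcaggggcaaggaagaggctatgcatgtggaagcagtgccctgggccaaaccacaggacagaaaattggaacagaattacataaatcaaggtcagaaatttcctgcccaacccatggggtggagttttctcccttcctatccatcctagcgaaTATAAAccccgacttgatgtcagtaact
MAOB: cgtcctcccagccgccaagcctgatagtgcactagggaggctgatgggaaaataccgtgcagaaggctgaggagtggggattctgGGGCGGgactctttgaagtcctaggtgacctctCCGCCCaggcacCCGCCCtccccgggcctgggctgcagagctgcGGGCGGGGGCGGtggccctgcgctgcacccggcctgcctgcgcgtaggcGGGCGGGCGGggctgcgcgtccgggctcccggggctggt
The AANAT stretch was 77.8% G and C, with 2 half-sites, 3 GC boxes and no TATAAA. The AOC2 window was 46.8% G and C, with 1 TATAAA close to the start and neither of the other 2 motifs. The MAOB window was 72.0% G and C and held 7 GC boxes, some overlapping, and the MAOA window, which is not printed, held 4. The AOC1 window, also not printed, held 1 half-site and 1 GC box. Of 35116 windows of 250 bases in the same table, 21.2% held the half-site, 42.6% the GC box and 10.7% TATAAA. Over 198 bases, as for AANAT, the shares were 18.3%, 40.0% and 8.5%. A match is a string of letters and not evidence of binding, and the gene counts do not tell which start was used. RefSeq promoter entries were matched for 5 of the 6 genes, all but AOC3.

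RNA libraries of the knockdown comparison held 12107280 to 23633851 counts, and the Scramble libraries 59209169 and 55007171. HNRNPK stood at 884 ± 78.0 CPM (read counts relative to library sizes scaled by TMM; SD, n = 4) in siNTC5 and at 199 ± 45.3 CPM (SD, n = 4) in siHNRNPK. Of the 8 colon epithelium markers 6 passed the filter, of which 4 were called higher, 1 lower and 1 was not called. Over all genes tested, 35.5% were called higher and 36.1% lower. EPCAM went from 249 to 396, KRT8 from 1160 to 2310 and KRT18 from 651 to 1730 CPM, KRT19 went down from 806 to 333 CPM, and CDX2 was at 12.1 and 12.0 CPM. CDX1 had at most 1 count in any library. The summed level of the list, most of it from the 3 keratins, was 2700 to 3110 CPM in controls and 4400 to 5440 in siHNRNPK. Nothing in the labels says that libraries came from separate cultures, so p-values measure the spread between these libraries, which may be technical. In bulk RNA, more cells of a kind and more RNA per cell cannot be told apart.

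AANAT had few counts in the controls and many more after HNRNPK siRNA. Its counts were 25, 32, 24 and 24 in siNTC5 replicates 1 to 4 and 228, 201, 212 and 236 in siHNRNPK replicates 1 to 4. The Scramble libraries, sequenced more deeply, held 17 and 17 counts. As CPM over the 8 libraries, controls lay between 1.31 and 1.60, and siHNRNPK libraries were 15.0, 14.9, 17.9 and 19.4. Every siHNRNPK library was above every control, and the 2 siHNRNPK libraries of the Ligation kit were the highest. The means were 1.43 ± 0.134 and 16.8 ± 2.22 CPM (SD, n = 4 each), an 11.7-fold ratio, and the fitted log2 fold change was 3.54 with a standard error (SE) of 0.13. By that value AANAT ranked 65th from the top of 13933 genes tested. The ratio was 10.6-fold within the TruSeq libraries and 12.8-fold within the Ligation libraries.

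AOC3 had counts of 189, 341, 201 and 246 in siNTC5 replicates 1 to 4 and of 1072, 957, 855 and 952 in siHNRNPK replicates 1 to 4. In CPM these were 11.2, 14.2, 13.4 and 13.5 against 70.7, 71.1, 72.1 and 78.5, with a wide gap between the groups. The mean went from 13.1 ± 1.30 to 73.1 ± 3.64 CPM (SD, n = 4 each), a 5.59-fold ratio and a log2 fold change of 2.47 with SE 0.07. The ratios within the kits were nearly equal, 5.57-fold for TruSeq and 5.61-fold for Ligation. AOC3 ranked 205th of the genes tested.

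AOC2, which lies 491 bases before AOC3 on chromosome 17, rose as well. Its counts were 257, 408, 240 and 333 in siNTC5 replicates 1 to 4 and 987, 877, 722 and 793 in siHNRNPK replicates 1 to 4. As CPM the controls were 15.2, 17.0, 16.0 and 18.2, and the siHNRNPK libraries were 65.1, 65.1, 60.9 and 65.3. The groups did not overlap, and the spread within each was small. The mean went from 16.6 ± 1.30 to 64.1 ± 2.16 CPM (SD, n = 4 each), 3.86-fold, with a log2 fold change of 1.94, SE 0.07 and an adjusted p of 4.71e-14 by edgeR's quasi-likelihood test. AOC2 was higher in 4 of 4 siHNRNPK libraries than in every control.

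The order of AOC2 and AOC3 counts turned around. In each siNTC5 library AOC2 had more counts than AOC3, at ratios of 1.36, 1.20, 1.19 and 1.35 in replicates 1 to 4. In siHNRNPK the ratios were 0.921, 0.916, 0.844 and 0.833, and in Scramble 1.85 and 1.74. These are ratios of raw counts within a library, not divided by gene length, so they show a shift between groups and not which transcript is more abundant. No test is given, since AOC3 was chosen for its rise. AOC2, AOC3 and the pseudogene AOC4P are related in sequence. How reads that fit several of them were counted is not given in the sources used here, so the share of each is uncertain.

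The monoamine oxidases went the other way, by less. MAOB had 862, 1185, 829 and 1053 counts in siNTC5 replicates 1 to 4 and 506, 502, 459 and 449 in siHNRNPK replicates 1 to 4. The CPM values were 51.1, 49.5, 55.2 and 57.6 in controls and 33.4, 37.3, 38.7 and 37.0 in siHNRNPK, without overlap. The means were 53.4 ± 3.73 and 36.6 ± 2.28 CPM (SD, n = 4 each). MAOB fell by 0.54 on the log2 scale, with SE 0.06 and an adjusted p of 2.06e-07 in edgeR. Every siHNRNPK library was below every control.

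MAOA had 443, 561, 400 and 518 counts in siNTC5 replicates 1 to 4 and 338, 281, 255 and 280 in siHNRNPK replicates 1 to 4. The CPM values were 26.3, 23.4, 26.6 and 28.4 in controls and 22.3, 20.9, 21.5 and 23.1 in siHNRNPK, so the lowest control was just above the highest siHNRNPK library. The means were 26.2 ± 2.04 and 21.9 ± 0.956 CPM (SD, n = 4 each). MAOA fell by 0.25 on the log2 scale, with SE 0.08 and an adjusted p of 0.00666 in edgeR. In the TruSeq libraries alone the log2 fold change was -0.19 and the call was lost (adjusted p = 0.179 in edgeR). The ratio of MAOB to MAOA counts was 1.95, 2.11, 2.07 and 2.03 in siNTC5 and 1.5, 1.79, 1.80 and 1.60 in siHNRNPK, lower in every siHNRNPK library. The mean log2 ratio differed by -0.29 (two-sided exact permutation test over the 8 libraries, p = 0.0286, the smallest that 4 against 4 libraries allow). With libraries permuted within each kit, exact p was 0.0556, the smallest that the 36 arrangements allow, so that form of the test could not pass 0.05. Both tests were added after the counts had been seen.

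AOC1 was at the edge of detection in both groups. It had 6, 6, 3 and 10 counts in siNTC5 replicates 1 to 4 and 6, 3, 5 and 3 in siHNRNPK replicates 1 to 4. Pooled over libraries the level was 0.337 CPM in siNTC5 (95% exact Poisson interval 0.218 to 0.498) and 0.323 CPM in siHNRNPK (0.188 to 0.517), intervals that cover counting error only. A difference was not detectable at this depth.

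**Figure D1:**
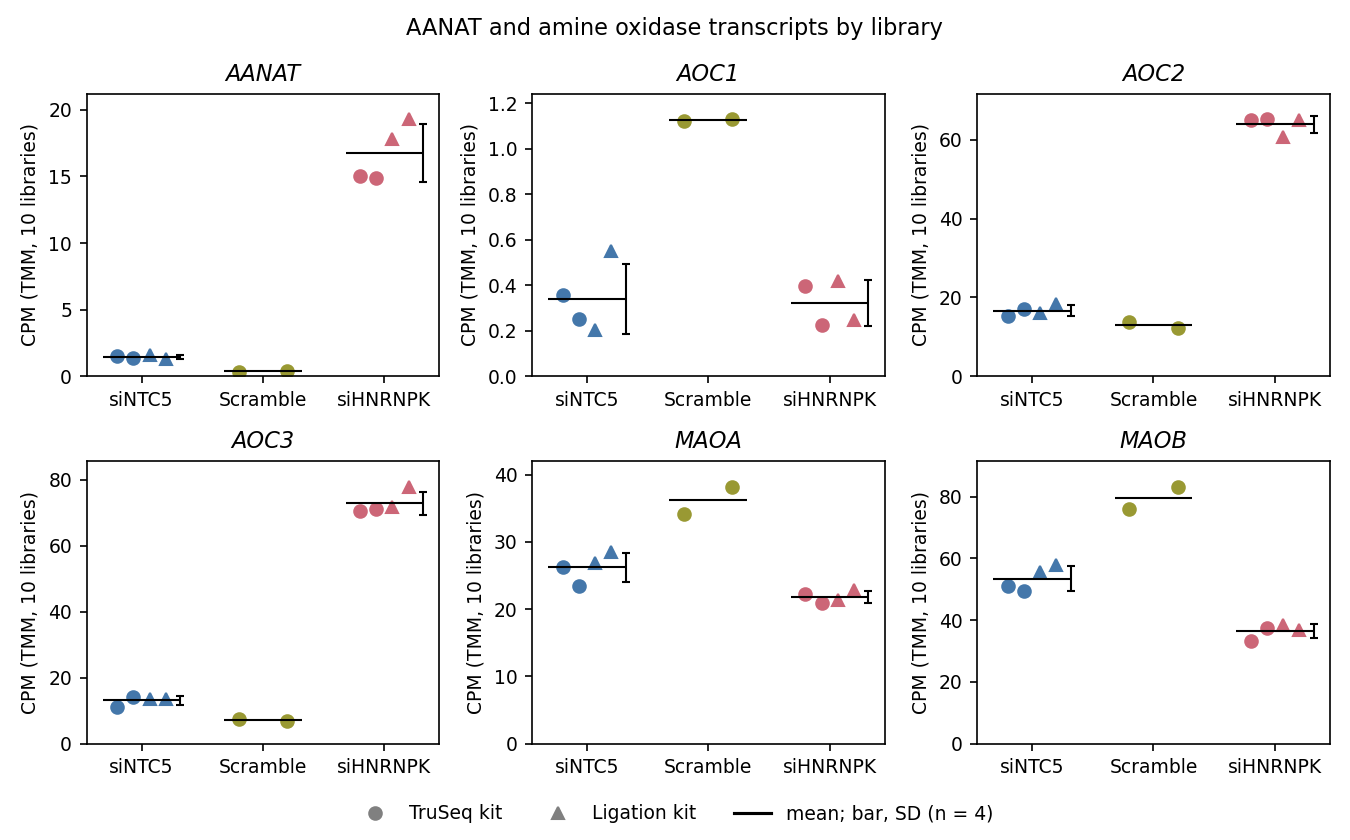
CPM (TMM over 10 libraries, axes from 0) of each gene by group, with circles for TruSeq and triangles for Ligation libraries, a line at the mean and a bar for the SD where n = 4. AANAT, AOC2 and AOC3 stand apart in siHNRNPK, MAOA and MAOB are lowest there and highest in Scramble, and AOC1 is highest in Scramble.

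These calls are set against a broad response. Of 13933 genes tested, 71.5% had an adjusted p under 0.05 in edgeR, 35.5% higher and 36.1% lower in siHNRNPK. Genes called with a change of 1 or more on the log2 scale made up 7.47% of the tested genes for higher and 8.28% for lower. The libraries of siHNRNPK all lay above the controls for 28.5% of the genes and all below for 28.0%. That the groups were separate for 5 members is therefore common in these data, and for AANAT and AOC3 nothing can be read from it. The median log2 fold change was -0.004 and the median absolute value 0.408. AOC2, with 1.94, ranked 346th from the top. None of the 5 members had a response that differed between kits by the interaction test, in which 0.129% of all genes were called. The interaction estimates were 0.27 with SE 0.30 for AANAT, -0.13 with SE 0.13 for AOC2, 0.03 with SE 0.15 for AOC3, -0.11 with SE 0.15 for MAOA and -0.07 with SE 0.12 for MAOB. The adjusted p in edgeR was 0.765 to 0.971 and the smallest unadjusted p was 0.355, so 0 of the 5 were under 0.05 unadjusted.

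The Scramble controls put the same genes at other levels than siNTC5. On CPM scaled over all 10 libraries, AANAT was 0.34 and 0.369 in Scramble against 1.32 to 1.61 in siNTC5, and AOC3 was 7.45 and 7 against 11.2 to 14.2. Neither is tested here. In the comparison of Scramble with siNTC5, 68.6% of 14263 genes were called in edgeR, 35.1% higher and 33.5% lower in Scramble, so a call is again common. MAOB was 76.0 and 83.2 CPM in Scramble against 53.5 ± 3.96 (SD, n = 4), with a log2 fold change of 0.62, SE 0.07 and an adjusted p of 7.37e-06 in edgeR. MAOA was 34.1 and 38.2 CPM against 26.2 ± 2.12, with a log2 fold change of 0.50, SE 0.09 and an adjusted p of 0.000416 in edgeR. AOC1 was clearly counted only here, with 56 and 52 counts, or 1.12 and 1.13 CPM, and a log2 fold change of 1.87 with SE 0.48. It passed the filter on low counts in this comparison only through the Scramble libraries, in which it was high, so no test is given. AOC2 was 13.8 and 12.2 CPM in Scramble against 16.7 ± 1.36, with a log2 fold change of -0.37, SE 0.11 and an adjusted p of 0.0125 in edgeR. That call was lost without siNTC5 replicate 2 (adjusted p = 0.0848) or without Scramble replicate 6 (adjusted p = 0.106). The control siRNA, the purification kit, the depth and the count table cannot be told apart here.

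The AANAT and AOC3 contrast thus differed in size between the siNTC5 and Scramble controls, with siHNRNPK higher than both. The siHNRNPK mean was 47.3-fold the Scramble mean for AANAT, 10.1-fold for AOC3 and 4.93-fold for AOC2. For MAOA and MAOB the siHNRNPK mean was 0.605 and 0.458 of the Scramble mean. For AOC1 it was 0.285 of the Scramble mean, against 0.945 of the siNTC5 mean. These ratios use the same siHNRNPK libraries as the comparison with siNTC5.

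Genes beside the members were read next. In RefSeq on GRCh38.p14, AANAT spans positions 76453351 to 76470117 of chromosome 17. UBE2O, a ubiquitin conjugating enzyme gene that starts 198 bases away in the other direction, fell slightly, from 171 to 146 CPM (log2 fold change -0.23, SE 0.04, adjusted p = 9.23e-05 in edgeR). RHBDF2, a rhomboid family gene that lies on the other side of AANAT, 0.8 kb away, rose from 45.7 to 78.3 CPM (log2 fold change 0.79, SE 0.06, adjusted p = 2.11e-09 in edgeR). SPHK1, a sphingosine kinase gene, fell, with a log2 fold change of -0.55, SE 0.18 and an adjusted p of 0.012 in edgeR. CYGB and PRCD, the next genes on the RHBDF2 side, had at most 3 counts in any library. Within 100 kb of AANAT 8 genes were tested, of which 4 were higher, 3 lower and 1 not called. Of all genes tested, 35.5% were higher and 36.1% lower, so calls in both directions are common. Some of these are small nucleolar RNA genes inside SNHG16, whose reads cannot be told apart from those of their host.

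AOC2 spans positions 42844580 to 42850707 and AOC3 positions 42851199 to 42858124 of chromosome 17. PSME3, a proteasome activator gene that lies 0.8 kb before AOC2, went from 218 to 200 CPM, with a log2 fold change of -0.12, SE 0.05 and an adjusted p of 0.0312 in edgeR. BECN1, an autophagy gene, was not called, with a log2 fold change of 0.04 and SE 0.06. The pseudogene AOC4P, 9.0 kb after AOC3, rose from 0.71 to 4.04 CPM, with a log2 fold change of 2.48 and SE 0.23. It passed the filter on low counts only through the siHNRNPK libraries, in which it was higher, so its call is not independent of the filter. LINC00671, a noncoding RNA gene 16.5 kb after AOC3, had 1 to 13 counts per library and was not tested. Further out, and named after its value was seen, WNK4, a kinase gene 47.5 kb before AOC2, rose from 9.28 to 52.1 CPM, with a log2 fold change of 2.47, SE 0.08 and an adjusted p of 2.33e-14 in edgeR. CNTD1 and VPS25, also named after their values were seen, had log2 fold changes of 1.37 (SE 0.20, adjusted p = 4.94e-06 in edgeR) and 0.58 (SE 0.06, adjusted p = 9.81e-08 in edgeR). COA3 and EZH1, among the same genes, were not called, at 0.05 (SE 0.09) and -0.02 (SE 0.07). Within 100 kb of AOC2, and apart from AOC3, 8 genes were tested, of which 4 were higher, 1 lower and 3 not called. The shares over all genes tested were 35.5% higher and 36.1% lower.

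**Figure D2:**
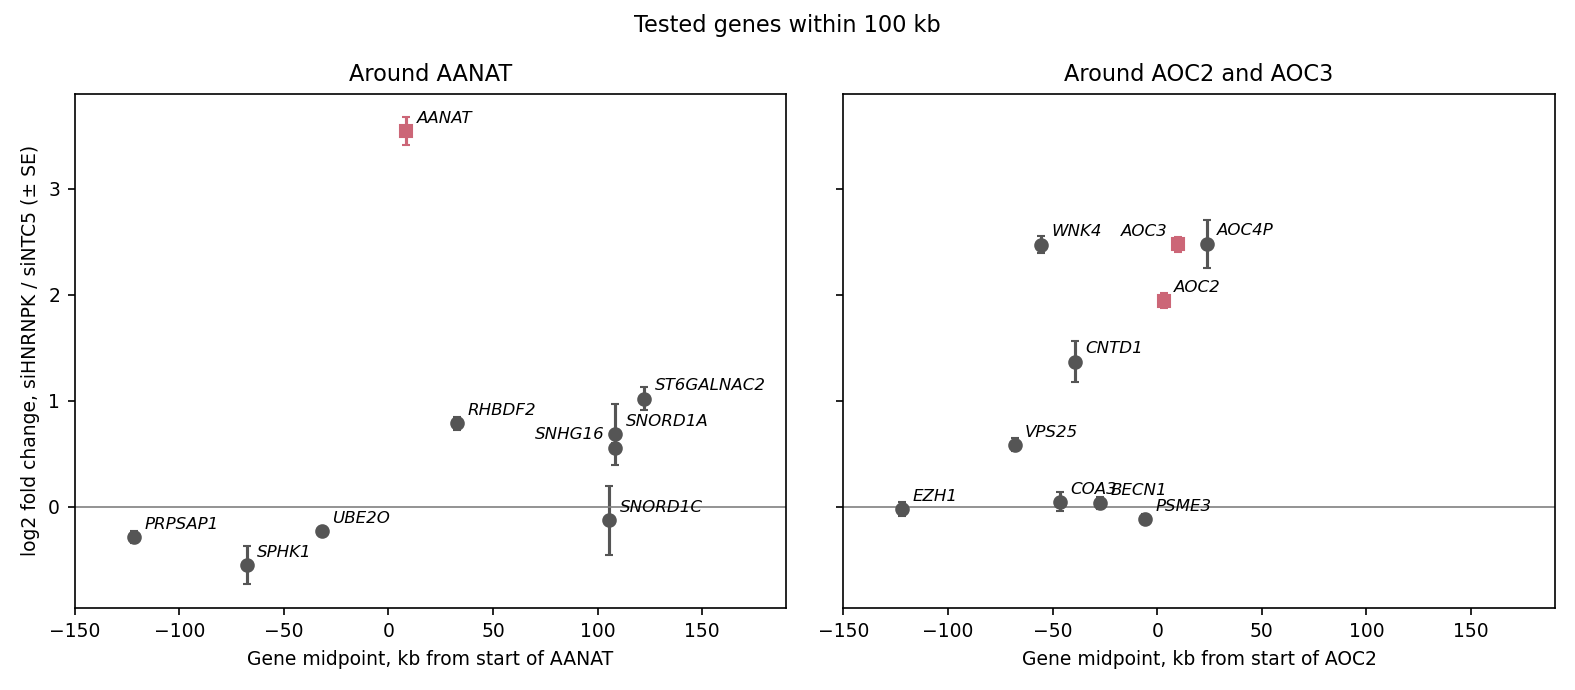
Log2 fold change of siHNRNPK over siNTC5 with its standard error for tested genes within 100 kb (edge to edge) of AANAT, left, and of AOC2, right, by the distance of the gene's midpoint from the member's start in kb. Squares are AANAT, AOC2 and AOC3. UBE2O and PSME3, the nearest genes on one side, lie slightly below 0, and WNK4 and AOC4P lie near AOC3.

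MAOA, at positions 43655006 to 43746817 of chromosome X, and MAOB, at 43766610 to 43882450, are 19.8 kb apart, and no other gene within 100 kb of MAOA is in RefSeq. NDP, the gene next after MAOB, had at most 1 count in any library. AOC1 spans positions 150852120 to 150861504 of chromosome 7 and overlaps the noncoding RNA gene LOC105375567. Since the strand counted is not given in the sources used here, reads of these 2 could not be told apart. TMEM176B, a membrane protein gene 50.8 kb before AOC1, went from 0.197 to 1.02 CPM, with a log2 fold change of 2.48 and SE 0.49. It passed the filter on low counts only through the siHNRNPK libraries, in which it was higher, so no test is given. KCNH2, a potassium channel gene 83.5 kb after AOC1, fell from 15.1 to 9.98 CPM, with a log2 fold change of -0.61, SE 0.12 and an adjusted p of 0.000178 in edgeR.

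Domain state separated AOC1 from the other 5 genes. Domain membership required coverage of 50% or more of the gene body. AANAT, AOC2, AOC3, MAOA and MAOB had no base in any of the 7 lists, control or siHNRNPK. That holds for 60.2% of the 26987 gene names with a RefSeq position and for 75.1% of the 13481 of them that were tested, so it does not set these genes apart. Their nearest domains lay far off, from 339.9 to 5753.4 kb for AANAT over the 7 lists, from 431.9 to 6701.2 kb for AOC3 and from 85.0 to 6820.0 kb for MAOA. The rise of AANAT, AOC2 and AOC3 was thus measured at genes outside lamin B1 domains in both conditions. The lists have no replicates, and the read depth behind them is unknown.

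AOC1 was covered over 100% of its body by H3K27me3, a mark of Polycomb repression, in both conditions. The control domain ran from 150410001 to 150975000 of chromosome 7 (565 kb, authors' score 2.0), and the siHNRNPK domain was 560 kb long with a score of 2.05. H3K9me3, a mark of constitutive heterochromatin, covered AOC1 in the siHNRNPK list alone. That domain was 80 kb long, from 150835001 to 150915000, with a score of 0.631, below the median of its list. The nearest control H3K9me3 domain was 1122.1 kb away. A control lamin B1 domain of 415 kb ended 2.1 kb before AOC1, and the siHNRNPK lamin B1 domain there was 270 kb long and ended 117.1 kb before it. The control H3K9me2 domain ended 122.1 kb before AOC1, and no H3K9me2 list for siHNRNPK was analysed here.

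AOC1 shared control H3K27me3 with 22.7% of positioned names and siHNRNPK H3K9me3 with 13.3%, against 9.43% for control H3K9me3. In all, 416 names (1.54%) had control H3K27me3 and H3K9me3 in the siHNRNPK list alone. Only 60 of them were tested, of which 26 (43.3%) were called higher and 12 (20.0%) lower, against 35.5% and 36.1% of all tested genes. Names low in siNTC5 passed the filter on low counts only if siHNRNPK was higher, so the filter itself can favour higher calls here. The difference from all tested genes was not tested, and nothing is read from it. AOC1 itself stayed under the filter on low counts.

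**Figure D3:**
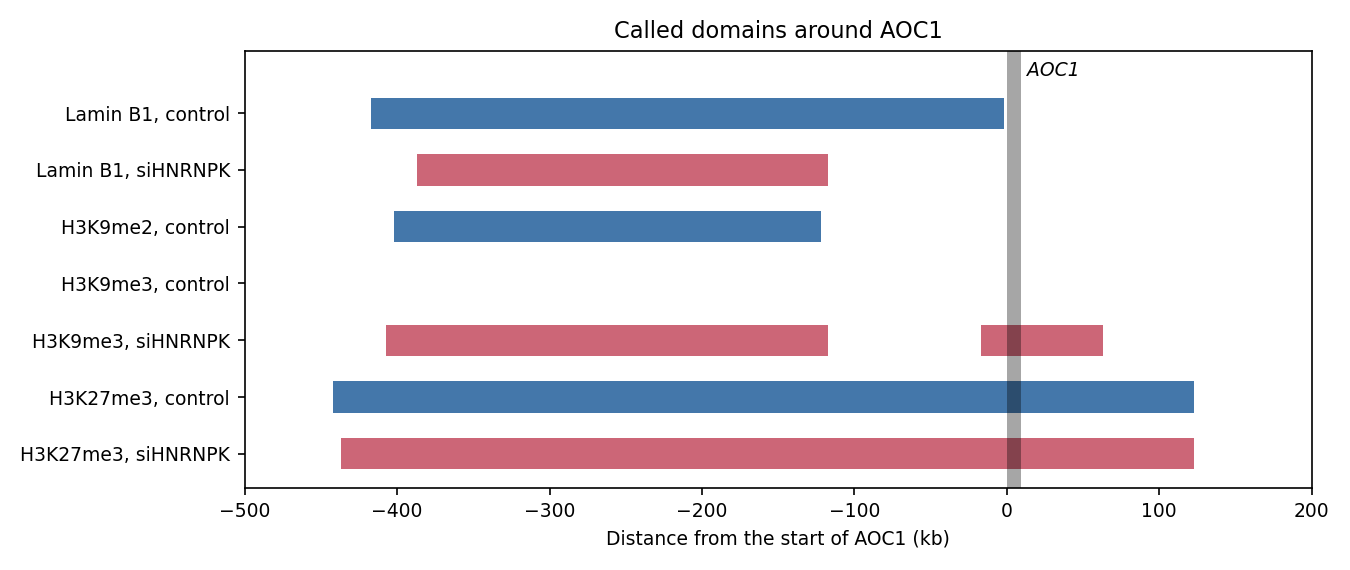
Called domains around the start of AOC1 by distance in kb, 1 row per list, blue for control and red for siHNRNPK, with the gene shaded in grey. The H3K27me3 domains cover the gene in both conditions, the H3K9me3 domain of 80 kb only in siHNRNPK, and the lamin B1 domains end 2.1 kb and 117.1 kb before it.

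The other genes of these pathways had calls in both directions in each of 6 lists, which are described here by counts and medians beside the shares of all genes given above. In the melatonin route, 2 of the 5 tested genes of 10 rose and 2 fell, with a median log2 fold change of 0.10. TPH1, the first enzyme of serotonin synthesis outside the brain, fell from 3.05 ± 1.00 to 1.35 ± 0.68 CPM (log2 fold change -1.17, SE 0.29, adjusted p = 0.00122 in edgeR), although its groups overlapped. DDC, which makes serotonin from its precursor, had 0 to 7 counts per library. ASMT, which completes melatonin, and the receptor gene MTNR1B had 0 counts in all 8 libraries. CYP1A1 and CYP1B1, cytochromes that hydroxylate melatonin, rose, with log2 fold changes of 1.23 (SE 0.16, adjusted p = 1.27e-06 in edgeR) and 1.09 (SE 0.19, adjusted p = 4.05e-05 in edgeR). NQO2, a quinone reductase that binds melatonin, fell from 41.9 to 19.1 CPM, with a log2 fold change of -1.13, SE 0.08 and an adjusted p of 7.54e-10 in edgeR.

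Among other amine oxidases, 3 of 11 tested genes of 12 rose and 4 fell, with a median log2 fold change of -0.09. AOC4P and IL4I1, an L-amino acid oxidase gene, rose by at least 1 on the log2 scale, IL4I1 from 0.211 to 0.881 CPM. Both passed the filter on low counts only through the siHNRNPK libraries, in which they were higher, so their calls are not independent of the filter. LOXL2, a lysyl oxidase that cross-links collagen, fell from 82.9 ± 22.4 to 13.9 ± 1.86 CPM (log2 fold change -2.54, SE 0.11, adjusted p = 6.7e-13 in edgeR). LOXL1, of the same family, had a log2 fold change of -1.86, SE 0.19 and an adjusted p of 4.76e-08 in edgeR. PAOX, which oxidises acetylated polyamines, went from 2.63 to 0.411 CPM. It passed the filter on low counts only through the siNTC5 libraries, in which it was higher, so its call is not independent of the filter either. LOX itself, at 2.37 and 2.65 CPM, and SMOX, the spermine oxidase, at 31.4 and 35 CPM, were not called.

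Of 22 genes of amine handling 12 were tested, of which 4 rose and 5 fell (median -0.13). SLC6A4, the serotonin transporter, rose from 0.403 to 1.54 CPM. It passed the filter on low counts only through the siHNRNPK libraries, in which it was higher, so its call is not independent of the filter. SULT1A1, a sulfotransferase, and SLC29A4, the plasma membrane monoamine transporter, fell, with log2 fold changes of -1.45 (SE 0.11, adjusted p = 6.25e-10 in edgeR) and -1.31 (SE 0.11, adjusted p = 7.33e-09 in edgeR). SULT1A1 has near copies, among them SULT1A3 with 0 counts in all 8 libraries, so its share of reads is uncertain. Of the aldehyde dehydrogenases, which clear the aldehydes these oxidases make, 5 were tested. ALDH2 rose from 28.6 to 41.2 CPM (adjusted p = 2.01e-06 in edgeR). ALDH1B1 fell from 106 to 67.1 CPM (adjusted p = 1.92e-09 in edgeR), and ALDH7A1 and ALDH9A1 fell by 0.32 and 0.17 on the log2 scale (adjusted p = 1.42e-05 and 0.00581 in edgeR). ALDH3A2 was not called, at 105 and 98.8 CPM.

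The polyamine list had 4 of 11 genes up and 5 down (median -0.02). SAT1, which acetylates polyamines, fell from 441 to 197 CPM (log2 fold change -1.15, SE 0.06, adjusted p = 4.81e-12 in edgeR), and OAZ3, an antizyme gene, rose from 1.60 to 4.41 CPM (adjusted p = 4.53e-06 in edgeR). Of the 14-3-3 proteins, which bind and protect phosphorylated AANAT, 2 of 6 tested genes rose and 3 fell (median -0.11), none by 1 or more on the log2 scale. YWHAE, the other gene of that list, had 1 to 8 counts per library. How the authors' counting treated reads that fit several places is not given in the sources used here, so a count at or near 0 does not show that a transcript was absent. YWHAZ, at 2020 CPM in siNTC5 and 1980 in siHNRNPK, was not called. Of the known regulators of these genes 8 of 10 were tested, of which 4 rose and 3 fell (median 0.10). PRKACA and PRKACB, catalytic subunits of the cyclic AMP dependent kinase that phosphorylates AANAT, both fell, with log2 fold changes of -1.21 (SE 0.07, adjusted p = 5.92e-11 in edgeR) and -1.45 (SE 0.04, adjusted p = 7.4e-15 in edgeR). KLF11, which binds monoamine oxidase promoters, and SIRT1, a deacetylase linked to MAOA, rose, with log2 fold changes of 1.21 (SE 0.09, adjusted p = 7.17e-10 in edgeR) and 1.05 (SE 0.06, adjusted p = 1.21e-11 in edgeR). CRX and OTX2, the pineal and retinal transcription factors known to drive AANAT, had 0 counts in all 8 libraries.

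**Figure D4:**
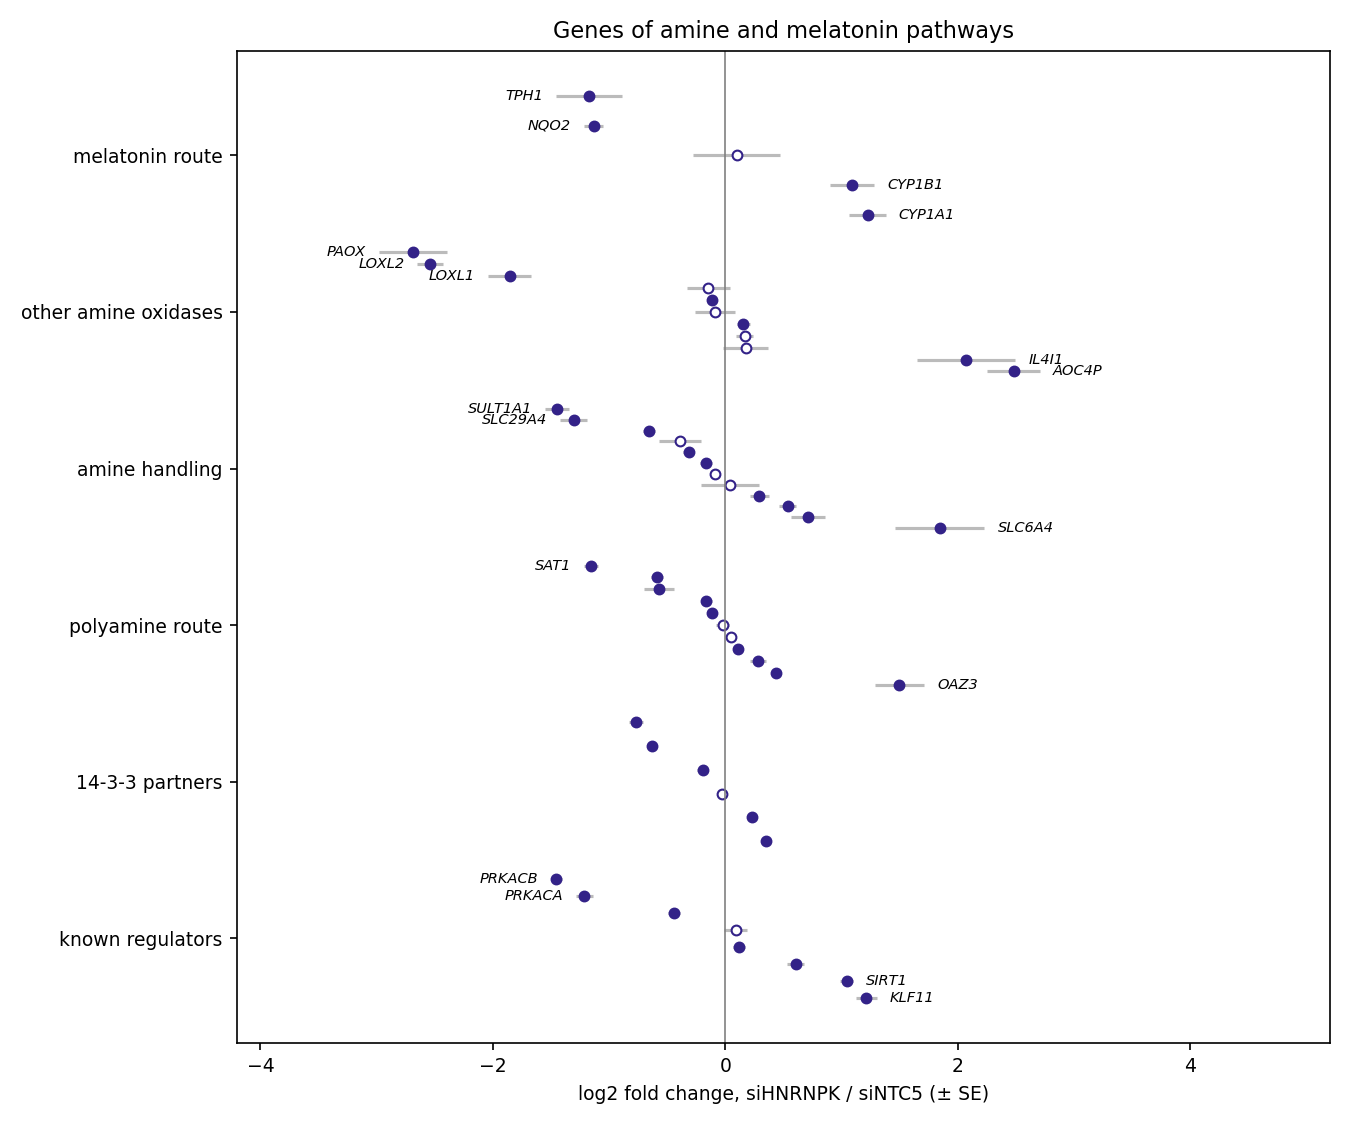
Log2 fold change of siHNRNPK over siNTC5 with its standard error for the tested genes of 6 lists, filled where the adjusted p in edgeR was under 0.05, named where the absolute change was also at least 1. Each list spreads to both sides of 0.

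Markers of pineal gland and retina, and of fat and endothelium, in which AANAT, AOC2 and AOC3 are best known, were low. Of the 5 pineal and retina markers, CRX, OTX2 and ASMT were at 0, and the list summed to 2.13 to 4.22 CPM in siNTC5 and 0.759 to 2.5 in siHNRNPK, most of it TPH1. The 6 markers of fat and endothelium summed to 0.93 to 1.33 CPM in siNTC5 and 2.64 to 3.89 in siHNRNPK. VWF, the single one tested, went from 0.626 to 1.73 CPM (log2 fold change 1.49, SE 0.32). It passed the filter on low counts only through the siHNRNPK libraries, in which it was higher, so no test of VWF is given. LEP went from 0.0274 to 0.544 CPM without overlap, ADIPOQ was at 0, and the groups overlapped for PECAM1, CDH5 and KDR. The sum of this list was higher in every siHNRNPK library beside AOC3, which is known from these tissues. The part of this list in the AOC3 result was not tested. The 5 leukocyte markers summed to 0.383 to 0.96 CPM in siNTC5 and 1.11 to 1.69 in siHNRNPK, also without overlap, with CD3E at 0 and none of them tested. The part of that list in the results was not tested. The smooth muscle and fibroblast list summed to 54.7 to 90.8 CPM in siNTC5 and 80.4 to 130 in siHNRNPK, mostly COL1A1, with MYH11 at 0. Of its 4 tested genes COL1A1 was higher, from 60.1 to 97.6 CPM, while ACTA2 fell from 4.08 to 1.45 CPM (log2 fold change -1.39, SE 0.28, adjusted p = 0.000218 in edgeR) and DES from 8.80 to 5.40 CPM (adjusted p = 0.000151 in edgeR), and PDGFRB was not called. The part of that list in the AOC2 and AOC3 results was not tested.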

How the data were processed

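The 6 members, the gene lists and the motifs were chosen with earlier results of these data known, and the 100 kb window after seeing the values. RNA values are raw counts per gene symbol, as deposited by the authors; reads were aligned with STAR 2.7.1a and counted with featureCounts of Subread 2.0.6, per the submitters' processing notes, which name builds hg19 and hg38 without saying which table used which. The annotation and the strand counted are not given in the sources used here. The 2 Scramble tables list 27135 names, 25527 of them shared with the table of 8 libraries. The domain lists, read as hg38, carry a deposited score whose unit, caller and pooling of libraries are not given in the sources used here.

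After filterByExpr and TMM scaling, edgeR 4.0.16 under R 4.3.3 ran the quasi-likelihood test with kit and treatment in the model, with Benjamini-Hochberg adjustment over all genes and a threshold of 0.05. The kit interaction used the same test, and the Scramble comparison used the shared names. The scripts were tested on simulated data. Fold values quoted as ratios are ratios of mean CPM. Positions came from RefSeq (GRCh38.p14) by exact symbol, for 26987 names. Genes named are the members, their 3 nearest neighbours on each side, and list genes that changed by 1 or more on the log2 scale or up to 4 others per list. Likeness is Pearson r of log2 CPM. Deviations from the group means were correlated between same-numbered libraries (r across genes 0.101, 0.418, 0.345 and 0.27 for replicates 1 to 4), but a number also marks the kit. With the kit removed r was -0.168 to -0.283. Removing group and kit means makes such values negative by itself, so they cannot tell whether same-numbered libraries were paired. Alternatives were other normalisations, DESeq2 1.42.0, other filters, single kits, the replicate block and each library left out. Levels are not compared between genes, since counts were not divided by length. One gene of the amine handling list is not reported here and was left out of its counts.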

Additional observations from a re-analysis of the deposited data

Results flagged for a closer look

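AOC2 in siHNRNPK replicate 3, a Ligation library, stood at 60.9 CPM, apart from the other 3 siHNRNPK libraries at 65.1 to 65.3 CPM. The gap was 0.935 of the range of the group, above Dixon's critical value for 4 samples. It was the single case among 14 groups looked at, and chance marks about 1 in 20 groups. The library remained above every control.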

How the results depend on the processing

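Over 249 alternative values of the results, 237 stayed the same by direction and call or within the spread, 8 moved, 4 lost their call and 0 reversed. The log2 fold change in the knockdown ranged over all alternatives from 3.42 to 3.68 for AANAT, 1.87 to 2.01 for AOC2, 2.41 to 2.54 for AOC3, -0.31 to -0.19 for MAOA and -0.59 to -0.50 for MAOB. Requiring a change of 1 or more on the log2 scale left 2195 called genes of 9968. The count of genes with a kit interaction, 18, was 239 without a filter on low counts and 65 by DESeq2. With the replicate block in place of kit, the knockdown count was 9872, and the pairing changed no member's call. Leaving out each library in turn gave 9612 to 9997 called genes in the knockdown comparison and 8667 to 9897 in the Scramble comparison. With domains at or above the median score of each list, 0 members lay in siHNRNPK H3K9me3 domains, against 1. With gene bodies widened by 10 kb, 26.8% of the AOC1 stretch lay in the control lamin B1 domain. The AOC3 difference of Scramble from siNTC5, -0.87 on the log2 scale, was -1.03 without siNTC5 replicate 1 and -0.68 without replicate 2. The cause was not tested. The MAOB to MAOA ratio was also permuted within kits, an alternative chosen after seeing the data, which could not pass 0.05 by its number of arrangements. DESeq2 gave no adjusted p for the AANAT interaction. The low counts of AOC1 and of AANAT in controls, 3 to 32 per library, limit the precision of their levels.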

Other observations

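The genes whose levels followed AANAT most closely over the 8 libraries were NLK (r = 0.9982), OTULIN (r = 0.9982) and TAF7 (r = 0.998), with smaller log2 fold changes of 0.65, 0.40 and 0.96. Those closest to AOC3 were RBM12B (r = 0.9989), ZNF320 (r = 0.9981) and HDAC7 (r = 0.998), with log2 fold changes of 1.19, 1.17 and 1.21. A total of 144 genes reached r = 0.99 with AANAT and 160 with AOC3. The 8 libraries fall into 2 groups and share kits, so these correlations are given as a description.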
